A study of Mus musculus with 6 samples.

Results

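*Fcrls* and 5 further genes are described here from RNA sequencing of mouse osteoclasts, the bone-resorbing, multinucleated cells of the monocyte lineage. The other 5 are genes for receptors that bind the Fc end of IgG: *Fcgr1*, *Fcgr2b*, *Fcgr3*, *Fcgr4* and *Fcgrt*. The 6 genes were picked by symbol out of 23204 genes in the deposited count table, with their difference between the genotypes already known. Their values in that contrast are therefore given as a description, without a test. The libraries were 3 from osteoclasts labelled Tet2Rank–/–; Tet3aRank+/–, called mutant below and read as homozygous for loss of *Tet2* and heterozygous for loss of *Tet3*, and 3 from wild-type osteoclasts. All came from C57BL/6 mice, each genotype with 1 female and 2 males by the labels; sex is not tied to single libraries, and neither age nor the number of animals is given. Bone marrow cells were kept in the growth factor M-CSF for 2 days, and the adherent cells were then cultured with M-CSF and RANKL, which makes them form osteoclasts. The meaning of Rank in the genotype is not spelled out in the labels, nor is it said in which cells or at what stage the alleles were lost or whether cultures were pooled.

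Fc gamma receptors sit on myeloid cells and bind IgG on microbes, immune complexes or coated cells. FCGR1, FCGR3 and FCGR4 are activating: they pair with the Fc receptor gamma chain, encoded by *Fcer1g*, whose ITAM motif recruits the kinase SYK, while FCGR2B carries an inhibitory ITIM that recruits phosphatases such as SHIP1. In osteoclast precursors the same gamma chain also serves OSCAR and other receptors that act beside RANK. FCRLS is an Fc receptor-like protein of mouse, widely used as a marker of microglia, the resident macrophages of the brain. FCGRT is the neonatal Fc receptor, an MHC class I-like chain that pairs with beta-2 microglobulin inside the cell and saves IgG and albumin from lysosomal breakdown.

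Libraries are named by the number that opens their column: 2, 3 and 5 were labelled mutant, and 1, 4 and 6 were wild type. Columns of libraries 5 and 6 carry a second number in their names and the other 4 do not, a split with both genotypes on each side that is called the naming split. Total counts ran from 9519978 to 14267135 in the libraries labelled mutant and from 8794973 to 12845879 in the wild-type libraries. *Tet2* stood at 52.0 ± 6.32 CPM (counts scaled by TMM to one common library size) in the libraries labelled mutant and 77.3 ± 4.90 CPM in wild type, and *Tet3* at 153 ± 11.4 CPM in the libraries labelled mutant and 131 ± 12.4 CPM in wild type (SD, n = 3 each). *Tet2* had an edgeR adjusted p of 0.0924 and a two-sided exact permutation p of 0.1, the smallest that 3 libraries against 3 can give. With the naming split as a term its adjusted p was 0.0400, and in DESeq2 it was 0.00672, so the call depended on the model. *Tet3* had 0.360 and 0.2 by the same tests, so its transcript was not shown to be lower and the genotype is written as labelled. Over all 14040 genes tested, 7 (0.0499%) were higher and 3 (0.0214%) lower in the libraries labelled mutant in the quasi-likelihood test of edgeR (Benjamini-Hochberg adjusted p under 0.05). Scaled by library totals alone, 42 were higher and 46 lower. Adding the naming split as a term, 433 (3.08%) were higher and 786 (5.6%) lower, and in DESeq2, which gave 12674 genes an adjusted p, 656 (5.18%) were higher and 746 (5.89%) lower.

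The promoter windows of 4 of the genes are shown because they hold the core of the site known to be bound by PU.1, a myeloid transcription factor. Each window runs from 250 bases before to 50 bases after a start site annotated by RefSeq (build GRCm38.p6), 5′ to 3′ on the gene's strand, with GAGGAA, or TTCCTC as the same letters on the other strand, in capitals. The windows are chr3:87263475-87263774 for *Fcrls*, chr3:96293920-96294219 for *Fcgr1*, chr1:171059354-171059653 for *Fcgr3* (the first of its 2 windows), all on the minus strand, and chr1:171018676-171018975 for *Fcgr4* on the plus strand.
Fcrls: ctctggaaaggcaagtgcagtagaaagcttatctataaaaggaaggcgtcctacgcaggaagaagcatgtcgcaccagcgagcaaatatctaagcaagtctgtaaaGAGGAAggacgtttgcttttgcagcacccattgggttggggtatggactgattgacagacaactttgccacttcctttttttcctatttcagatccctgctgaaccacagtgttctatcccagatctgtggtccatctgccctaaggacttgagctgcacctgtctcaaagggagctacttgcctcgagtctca
Fcgr1: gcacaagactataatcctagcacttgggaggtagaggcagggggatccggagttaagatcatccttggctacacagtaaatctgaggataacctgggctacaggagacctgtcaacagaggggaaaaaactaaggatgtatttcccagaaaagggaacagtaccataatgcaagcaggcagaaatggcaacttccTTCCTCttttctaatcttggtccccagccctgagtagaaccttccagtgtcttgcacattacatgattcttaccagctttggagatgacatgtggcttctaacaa
Fcgr3: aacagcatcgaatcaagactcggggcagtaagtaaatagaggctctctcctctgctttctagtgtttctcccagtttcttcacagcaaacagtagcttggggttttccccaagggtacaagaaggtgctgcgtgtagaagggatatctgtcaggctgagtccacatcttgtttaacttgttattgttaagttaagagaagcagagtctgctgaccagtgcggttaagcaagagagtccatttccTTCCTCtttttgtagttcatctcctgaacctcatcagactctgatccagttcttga
Fcgr4: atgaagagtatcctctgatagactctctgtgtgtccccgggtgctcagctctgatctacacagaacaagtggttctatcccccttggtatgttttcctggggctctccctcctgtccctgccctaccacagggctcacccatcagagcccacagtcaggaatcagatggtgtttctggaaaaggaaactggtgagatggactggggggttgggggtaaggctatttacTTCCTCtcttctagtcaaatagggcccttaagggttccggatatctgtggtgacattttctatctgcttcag

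The motif began 144 bases before the start in *Fcrls*, 55 in *Fcgr1*, 6 in *Fcgr3* and 22 in *Fcgr4*. It was not in the windows of *Fcgr2b* and *Fcgrt*, and it was in 28.3% of all 32851 windows of that length. CG pairs, the substrate of DNA methylation, numbered 6 in *Fcrls* and *Fcgr2b*, 5 in *Fcgrt*, 4 in *Fcgr3*, 2 in *Fcgr4* and 1 in *Fcgr1*, with a median of 7 over all windows; 47.9% of all windows hold as few as *Fcrls*, and 14.1% as few as *Fcgr1*. Such matches describe letters only. Methylation was not analysed here.

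*Fcrls* (ENSMUSG00000015852, chromosome 3, 87250758 to 87263738, mm10) had 270.5, 259 and 179 CPM in libraries 2, 3 and 5, labelled mutant, against 29.6, 25.2 and 12.025 CPM in wild-type libraries 1, 4 and 6. The lowest library labelled mutant was 6.03 times the highest wild-type library. The raw counts were 3863, 2538 and 2402 in the libraries labelled mutant, against 254, 326 and 150 in wild type. The means were 236 ± 49.9 CPM in the libraries labelled mutant and 22.3 ± 9.16 CPM in wild type (SD, n = 3 each), a log2 fold change of 3.41 (SE 0.37), or 10.6-fold. By size it was number 1 of the 14040 log2 fold changes tested, toward the libraries labelled mutant. Within libraries 1 to 4 the log2 difference was 3.27, and between libraries 5 and 6 it was 3.89.

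**Figure D1:**
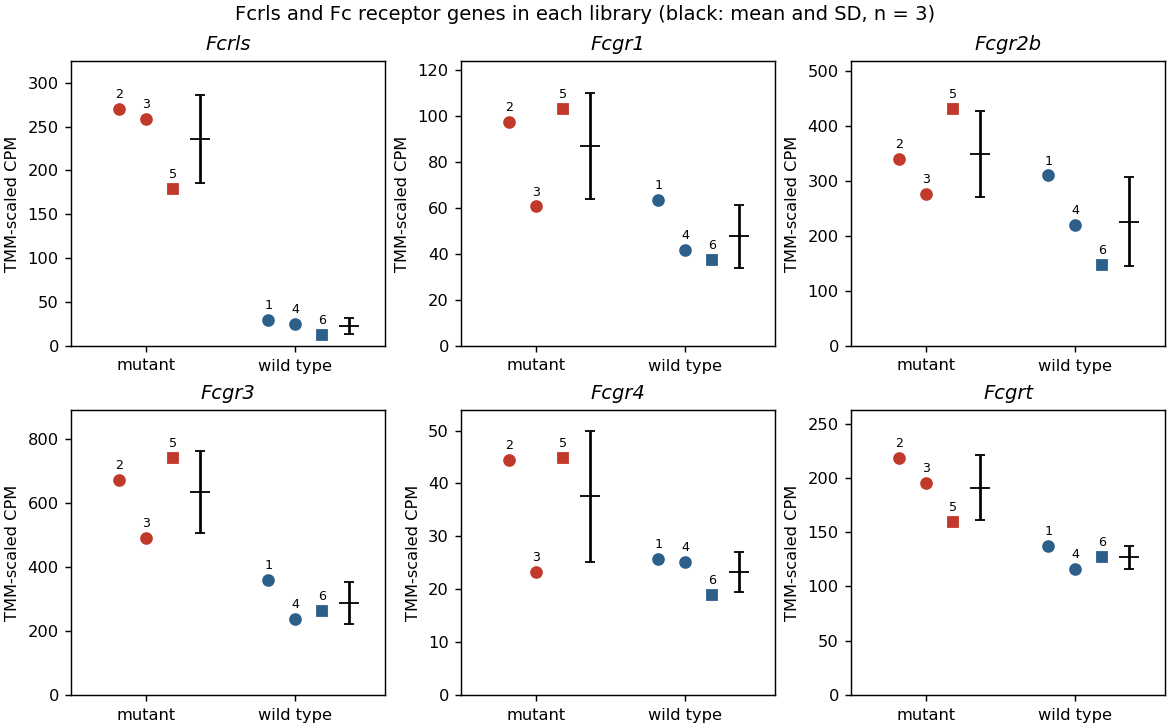
TMM-scaled CPM (vertical axis from 0, one scale per gene) of the 6 genes in each library; red is labelled mutant, blue is wild type, squares are libraries 5 and 6, and black marks give mean and SD (n = 3). *Fcrls*, *Fcgr3* and *Fcgrt* do not overlap between genotypes, while library 3 falls among the wild-type values of *Fcgr1*, *Fcgr2b* and *Fcgr4*.

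Among the activating receptors, *Fcgr3* (ENSMUSG00000059498, chromosome 1, 171051174 to 171064935), the low-affinity receptor, had 671, 491 and 741 CPM in libraries 2, 3 and 5, against 360.45, 238 and 262 CPM in wild-type libraries 1, 4 and 6. Libraries did not overlap, and library 3 was the lowest of those labelled mutant. The means were 634 ± 129 CPM in the libraries labelled mutant and 287 ± 64.7 CPM in wild type (SD, n = 3 each), a log2 fold change of 1.14 (SE 0.23). *Fcgr1* (ENSMUSG00000015947, chromosome 3, 96282909 to 96293969), the high-affinity receptor that can bind single IgG molecules, had 97.4, 60.7 and 103 CPM in the libraries labelled mutant, against 63.5, 41.9 and 37.6 CPM in wild type. Library 3 lay just under wild-type library 1, so the genotypes overlapped. Its log2 fold change was 0.88 (SE 0.27). *Fcgr4* (ENSMUSG00000059089, chromosome 1, 171018920 to 171029761), which binds IgG2a and IgG2b, had 44.4, 23.3 and 44.9 CPM in the libraries labelled mutant, against 25.8, 25.1 and 18.9 CPM in wild type. Libraries 2 and 5 lay above every wild-type library, whereas library 3 lay below libraries 1 and 4. Its log2 fold change was 0.69 (SE 0.28).

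*Fcgr2b* (ENSMUSG00000026656, chromosome 1, 170958617 to 170976547), the inhibitory receptor, had 341, 276 and 432 CPM in libraries 2, 3 and 5, against 310.3, 221 and 148 CPM in wild-type libraries 1, 4 and 6. Library 3 lay below library 1, so the genotypes overlapped. The means were 349.7 ± 78.3 CPM in the libraries labelled mutant and 226 ± 81.5 CPM in wild type (SD, n = 3 each). Its log2 fold change was 0.63 (SE 0.30). *Fcgrt* (ENSMUSG00000003420, chromosome 7, 45092990 to 45103851) had 219, 196 and 159 CPM in the libraries labelled mutant, against 137, 116 and 127 CPM in wild type. The genotypes did not overlap, and library 5 was the lowest of those labelled mutant. Its log2 fold change was 0.59 (SE 0.15).

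All 6 genes had a log2 fold change above 0, as did 46.8% of all genes tested, and 3 of the 6 had every library labelled mutant above every wild-type library, as did 9.91% of all genes tested. Since the genes were picked on this contrast, nothing is read from these counts. The size of the difference for the 4 Fc gamma receptors depended on which libraries were set against each other. Within libraries 1 to 4 the log2 difference was 0.58 for *Fcgr1*, 0.23 for *Fcgr2b*, 0.97 for *Fcgr3* and 0.34 for *Fcgr4*. Between library 5, labelled mutant, and wild-type library 6 it was 1.46, 1.55, 1.50 and 1.24 in the same order. For *Fcgrt* the first of these differences was 0.71 and the second 0.33. Whether the sides of the split differ in this was not tested.

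Reads from *Fcgr3* and *Fcgr2b* could be confused in part, since 94 of the 1733 windows of 75 bases, the read length, in *Fcgr3* transcripts (5.42%) also occur in *Fcgr2b* transcripts of GENCODE M21. *Fcgr2b* shares 313 of its 5768 windows (5.43%) with transcripts of other genes, *Fcgr3* among them, when both strands are counted. On the same strand alone the share is 2.705%. *Fcrls*, *Fcgr1*, *Fcgr4* and *Fcgrt* share 0 such windows with transcripts of any other gene. *Fcgr2b* exons also overlap those of an antisense gene, *Gm38204*, over 155 bases (2.68% of its exon length), and the strand setting of the counting is not given in the sources used here.

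Of the markers of cell type, 0 passed between the genotypes in edgeR, where 7 of the 12 osteoclast and 4 of the 12 macrophage markers had an unadjusted p under 0.05, as did 19.6% of all genes tested. In the model with the naming split 9 osteoclast markers fell (5.6% of all genes), and 3 macrophage markers rose (3.08% of all genes). So did 3 of the 6 dendritic cell markers and 3 of the 7 neutrophil markers tested. The 12 osteoclast markers, among them *Acp5*, *Ctsk* and *Nfatc1*, were present in every library. Their sum lay between 3025 and 12577 CPM in the libraries labelled mutant and between 15354 and 40178 CPM in wild type. *Mmp9*, *Ctsk* and *Acp5* had the highest levels. None of the 12 had a log2 fold change above 0, and 8 did not overlap on the lower side (16.9% of all genes). *Itgb3*, *Dcstamp*, *Tnfrsf11a* and *Calcr* overlapped. The 12 macrophage markers summed to between 20610 and 27022 CPM in the libraries labelled mutant and between 11856 and 19799 CPM in wild type. Most of that sum was the lysozyme gene *Lyz2*, at 20108, 14263 and 14023 CPM in libraries 2, 3 and 5, against 13758, 10177 and 6624 CPM in wild type. Of the 12 macrophage markers, 5 did not overlap on the higher side (9.91% of all genes). *Cd68*, *Itgam* and *Marco* had log2 fold changes of -0.15, -0.04 and -0.28 with overlap. In whole cultures, more cells of one kind and more RNA per cell cannot be told apart, and the part that cell make-up plays in the receptor values was not tested. Natural killer cell markers summed to between 0.490 and 2.16 CPM in the libraries labelled mutant and between 0.465 and 1.20 CPM in wild type, with all 6 of those in the table under a mean of 1 CPM. Mast cell markers summed to between 8.46 and 17.8 CPM in the libraries labelled mutant and between 7.47 and 16.5 CPM in wild type. B cell markers, a lineage that uses *Fcgr2b*, summed to between 72.0 and 123 CPM in the libraries labelled mutant and between 33.4 and 81.5 CPM in wild type; 3 of the 7 stood under a mean of 1 CPM, among them *Pax5*. The 8 dendritic cell markers summed to between 1420.2 and 5227 CPM in the libraries labelled mutant and between 708 and 1749.9 CPM in wild type. The 8 neutrophil markers summed to between 299 and 1010.2 CPM in the libraries labelled mutant and between 168 and 641 CPM in wild type. The part of these cells was not tested either.

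Divided by exon length, as CPM per kb, *Fcgr3* had the highest level in both genotypes, at 365 ± 74.3 in the libraries labelled mutant and 165 ± 37.3 in wild type (SD, n = 3 each). In the libraries labelled mutant *Fcrls* came next at 101 ± 21.4, followed by *Fcgrt* at 91.0 ± 14.3, *Fcgr2b* at 60.4 ± 13.5, *Fcgr1* at 33.7 ± 8.92 and *Fcgr4* at 29.9 ± 9.80 CPM per kb. *Fcrls* overlapped *Fcgrt* there, and *Fcgr1* overlapped *Fcgr4*. In wild type the order below *Fcgr3* was *Fcgrt* at 60.3 ± 5.12, *Fcgr2b* at 39.1 ± 14.1, *Fcgr4* at 18.5 ± 3.01, *Fcgr1* at 18.4 ± 5.35 and last *Fcrls* at 9.55 ± 3.93 CPM per kb, with overlap only between *Fcgr4* and *Fcgr1* among neighbours in that order. *Fcrls* thus stood below each of the other 5 genes in every wild-type library and above *Fcgr2b*, *Fcgr1* and *Fcgr4* in every library labelled mutant. The exon length of *Fcgr2b*, 5790 bases over all its annotated transcripts, may exceed that of the transcripts in use, in which case its level per kb is understated.

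Of the summed CPM per kb of the 4 Fc gamma receptors, *Fcgr3* made up 74.6%, 75.9% and 74.0% in libraries 2, 3 and 5, against 67.8%, 64.9% and 73.3% in wild-type libraries 1, 4 and 6. *Fcgr2b* made up 11.4%, 12.8% and 12.9% in the libraries labelled mutant, against 17.5%, 18.0% and 12.4% in wild type. The ratio of the 3 activating receptors to *Fcgr2b* was 7.81, 6.81 and 6.73 in the libraries labelled mutant, against 4.71, 4.55 and 7.09 in wild type. From CPM not divided by length it was 2.38, 2.08 and 2.06 in the libraries labelled mutant, against 1.45, 1.38 and 2.16 in wild type. The level of the ratio thus rests on the exon lengths used. Library 6 lay among the libraries labelled mutant in its *Fcgr2b* share and in the ratio, and just below them in its *Fcgr3* share. Library 6 had the lowest *Fcgr2b* level of the 6, whereas its *Fcgr3* level was above that of library 4. The log2 ratio averaged 0.41 higher in the libraries labelled mutant, and 0.09 higher when *Fcgr3* was left out of the activating sum.

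**Figure D2:**
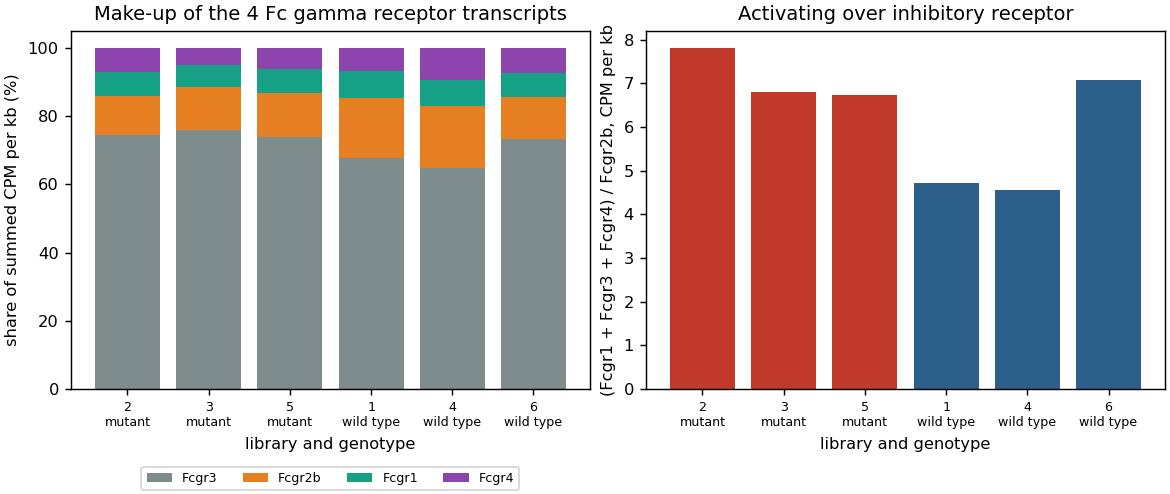
Left, share (%) of each Fc gamma receptor gene in their summed CPM per kb for each library. Right, ratio, by CPM per kb, of the activating receptors *Fcgr1*, *Fcgr3* and *Fcgr4* to the inhibitory *Fcgr2b*, red for labelled mutant and blue for wild type. The ratio is 6.73 to 7.81 in the libraries labelled mutant and 4.55 to 7.09 in wild type, where library 6 is the highest.

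The naming split, which played no part in choosing the genes, was tested with genotype in the same model. Of the 6 genes, 0 passed at an adjusted p under 0.05 (edgeR), where 322 of 14040 genes (2.29%) passed, 65 (0.463%) of them higher and 257 (1.83%) lower in libraries 5 and 6. *Fcrls* came nearest, averaging 95.4 CPM in libraries 5 and 6 and 146 CPM in libraries 1 to 4, with a log2 fold change of -0.83 (SE 0.17; adjusted p = 0.0585 and unadjusted p = 0.00189 in edgeR, and adjusted p = 0.000527 in DESeq2). Each genotype showed this direction, with 179 CPM in library 5 against 270.5 and 259 in libraries 2 and 3, and 12.025 CPM in library 6 against 29.6 and 25.2 in libraries 1 and 4. Without library 1 or library 3 the adjusted p of *Fcrls* was 0.0465 or 0.0387 (edgeR). The log2 fold changes of the other 5 genes along the split lay between -0.18 for *Fcgrt* (SE 0.14) and 0.09 for *Fcgr3* (SE 0.23), with adjusted p-values of 0.473 or more in edgeR. Marker genes also differed along the split: 4 of 7 neutrophil markers tested passed (median log2 fold change 1.59), as did 2 of 6 dendritic cell markers (median 1.43) and 1 of 12 osteoclast markers (median 1.18), all with higher medians in libraries 5 and 6. Of 18 genes tested that mark microglia, 2 passed, *Olfml3* higher and *Sall1* lower in libraries 5 and 6 (median of the 18, -0.19). Of 12 macrophage markers 0 passed (median -0.28). The part of these markers in the *Fcrls* value was not tested. For the 4 Fc gamma receptors, library 5 was the highest of the libraries labelled mutant, and library 6 the lowest wild-type library for all but *Fcgr3*.

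Across the 6 libraries, the profiles of the 4 Fc gamma receptor genes differed less from each other than from *Fcrls*. The genes were picked on the genotype contrast, so part of this likeness may follow from the choice. The measure used also grows with the size of the genotype difference. Both the distance of *Fcrls* from the others and the genes found most like it therefore reflect that size. Each of the 4 had genes outside the 6 that were closer still, named below. As root-mean-square difference of log2 CPM, each gene centred on its mean, *Fcgr1* differed by 0.18 from *Fcgr3*, 0.20 from *Fcgr2b* and 0.21 from *Fcgr4*, the other pairs among the 4 by 0.26 to 0.34, and *Fcgrt* from each of them by 0.39 to 0.41. *Fcrls* differed from the other 5 by 1.26 to 1.50. Among 12643 named genes with a mean of at least 1 CPM, those most like *Fcrls* were *F13a1*, a coagulation factor XIII subunit gene made by macrophages, with a difference of 0.54, the phosphodiesterase gene *Pde3b* (0.65), the chemokine gene *Ccl6* (0.79), *Nxpe5* (0.80) and the drug efflux transporter gene *Abcb1a* (0.81). *F13a1* stood at 557 ± 89.1 CPM in the libraries labelled mutant and 99.9 ± 41.1 CPM in wild type (SD, n = 3 each). The genes most like *Fcgr1* were *Tlr13*, a receptor for bacterial RNA, at 0.05, *Mpeg1*, a macrophage pore-forming protein gene, at 0.11, and *Tmem37* at 0.11. Those most like *Fcgr3* were *Ggta1*, a galactosyltransferase gene, *Lgmn*, which encodes the lysosomal protease legumain, and *Osgin1*, at 0.07 to 0.08. *Tanc2*, *Serpina3g* and *Acvrl1* were most like *Fcgr2b* (0.09 to 0.13), *Gfpt2*, *Lgals3bp* and *Tlr3* most like *Fcgr4* (0.14 to 0.15), and *Slc35d2*, *Slc25a45* and *Fnbp1* most like *Fcgrt* (0.09 to 0.10).

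**Figure D3:**
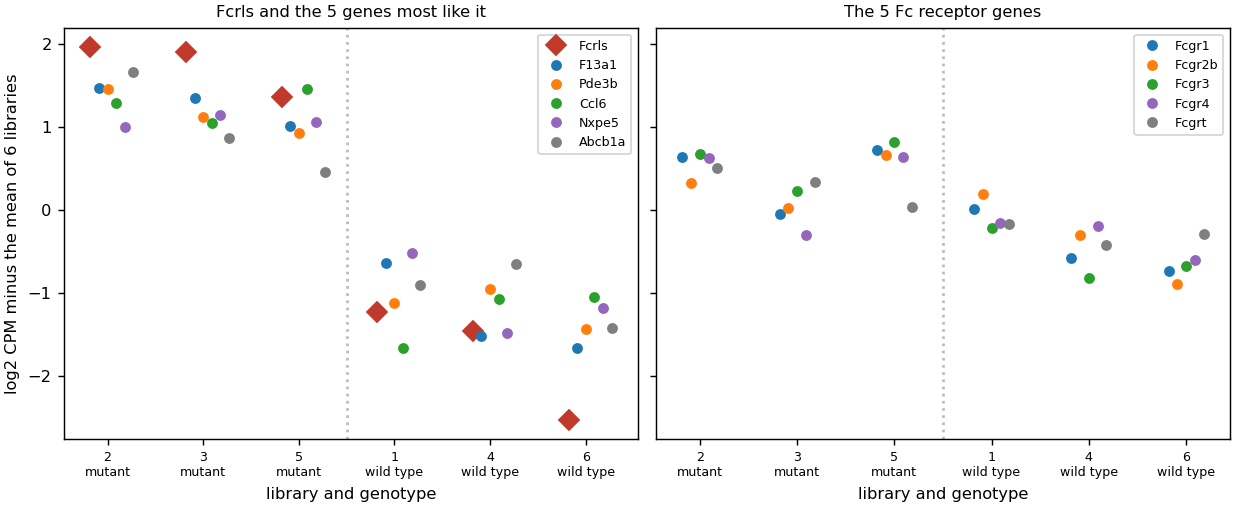
Log2 CPM minus the gene's mean over 6 libraries (vertical axis), by library; left, *Fcrls* (red diamonds) with the 5 genes of most like profile, and right, the other 5 genes. *Fcrls* spans from 1.96 in library 2 to -2.53 in library 6, while the other 5 stay within 0.82 and -0.89.

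Of the other Fc receptor family genes and partner chains on a list of 14, 12 were in the table and 6 had enough counts to be tested; 0 passed between the genotypes over all genes in edgeR, where 3 had an unadjusted p under 0.05, as did 19.6% of all genes, and DESeq2 called 1 higher and 1 lower, against 5.18% and 5.89% of all genes. *B2m*, the partner chain of FCGRT, stood at 2829, 1803 and 2389 CPM in libraries 2, 3 and 5, against 2164, 1353 and 1065 CPM in wild-type libraries 1, 4 and 6 (edgeR adjusted p = 0.343). *Fcer1g*, the gamma chain of the activating receptors, stood at 609.7, 475 and 515 CPM in the libraries labelled mutant, against 432, 298 and 265 CPM in wild type. Its libraries did not overlap, with a log2 fold change of 0.69 (SE 0.22; adjusted p = 0.158 in edgeR). *Trim21*, a cytosolic antibody receptor, had 0.43 (SE 0.18, adjusted p = 0.262).

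The Fc receptor-like genes *Fcrlb* and *Fcrl1* had log2 fold changes below 0, unlike *Fcrls*. *Fcrlb*, which encodes an intracellular Fc receptor-like protein, stood at 0.560, 1.22 and 0.968 CPM in libraries 2, 3 and 5, against 2.80, 4.34 and 4.41 CPM in wild-type libraries 1, 4 and 6, a log2 fold change of -2.07 (SE 0.47; adjusted p = 0.100 in edgeR). *Fcrl1*, better known from B cells, stood at 10.6, 8.46 and 18.3 CPM in the libraries labelled mutant, against 20.1, 18.8 and 28.7 CPM in wild type, a log2 fold change of -0.85 (SE 0.33; adjusted p = 0.223 in edgeR). Neither gene overlapped between the genotypes, and 16.9% of all genes tested did not overlap on the lower side. Both passed as lower with the naming split as a term (edgeR adjusted p = 0.0439 and 0.0310), as did 5.6% of all genes. *Fcrla* had at most 14 counts in a library, and *Fcmr*, *Fcer2a*, *Fcrl5*, *Fcrl6*, *Ms4a2* and *Pigr* had too few to be tested.

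Of 25 kinases, adaptors and phosphatases that act on the ITAM or ITIM of these receptors, all were tested, 0 passed between the genotypes in edgeR, 11 had an unadjusted p under 0.05 (19.6% of all genes), and DESeq2 called 5, all higher (5.18% of all genes). Without overlap, 9 were higher and 3 lower, beside 9.91% and 16.9% of all genes. The median log2 fold change was 0.08, beside -0.03 over all genes tested. *Syk* stood at 472, 414 and 487 CPM in libraries 2, 3 and 5, against 424, 325 and 396 CPM in wild type, with overlap (log2 fold change 0.26, SE 0.15, edgeR adjusted p = 0.397). *Ptprc*, the receptor phosphatase CD45, had 0.04 (adjusted p = 0.964), and *Ptpn6*, which encodes the phosphatase SHP-1, had -0.13 (adjusted p = 0.754). With the naming split as a term 1 of the 25 rose, against 3.08% of all genes that were higher with that term.

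Of 22 cytoskeleton and oxidase genes of Fc receptor phagocytosis, 0 passed in edgeR, 6 had an unadjusted p under 0.05 (19.6% of all genes), and DESeq2 called 2 higher and 2 lower (5.18% and 5.89% of all genes). Their median log2 fold change was 0.12. The 3 with the highest level were the GTPase gene *Cdc42* with a log2 fold change of 0.01 (SE 0.14), the actin-branching subunit gene *Arpc1b* with 0.06 (SE 0.15), and *Cybb*, the catalytic subunit gene of the NADPH oxidase, with 0.23 (SE 0.32), and each had an edgeR adjusted p of 0.787 or more. With the naming split as a term, *Marcks*, an actin-binding substrate of protein kinase C, rose, and *Rac2*, a GTPase gene, and *Ncf4*, an oxidase subunit gene, fell (edgeR adjusted p = 0.0201, 0.0254 and 0.0230). With that term 5.6% of all genes were lower. The choice of these 3 genes was made with their values in view.

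Of 19 genes that mark microglia together with *Fcrls*, 18 were tested, 0 passed between the genotypes in edgeR, 10 had an unadjusted p under 0.05 (19.6% of all genes), and DESeq2 called 8 higher and 1 lower (5.18% and 5.89% of all genes). The median log2 fold change was 0.73, and 16 of the 18 lay above 0, as did 46.8% of all genes. *Csf1r*, the M-CSF receptor gene, stood at 3244, 3018 and 3201 CPM in libraries 2, 3 and 5, against 3134, 2563 and 3026 CPM in wild type, with overlap (log2 fold change 0.12, SE 0.14, edgeR adjusted p = 0.754). The complement genes *C1qb* and *C1qc* had log2 fold changes of 1.33 and 1.22 and did not overlap (edgeR adjusted p = 0.0676 and 0.0859). With the naming split as a term 8 rose and 2 fell, beside 3.08% and 5.6% of all genes. Those that rose were *C1qa*, *C1qb*, *C1qc*, *Trem2*, *Mertk* and the purine receptor or related genes *P2ry6*, *P2ry13* and *Gpr34*, and those that fell included *Tgfbr1*, a TGF-beta receptor gene (named after their values were seen, as are the next genes). *Gpr34* stood at 22.8, 22.5 and 23.3 CPM in the libraries labelled mutant, against 9.92, 4.49 and 4.89 CPM in wild type. The markers used most widely for microglia beside *Fcrls* were low: *P2ry12* had 20.2, 18.4 and 24.2 CPM in the libraries labelled mutant, against 18.3, 10.8 and 7.78 CPM in wild type, *Tmem119* had between 13.7 and 16.3 CPM in the libraries labelled mutant and between 6.88 and 14.4 CPM in wild type, and *Siglech* had between 1.63 and 3.99 CPM in the libraries labelled mutant and between 1.01 and 3.73 CPM in wild type.

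Of 8 transcription factor genes known to act on Fc gamma receptor genes in myeloid cells, 7 had a log2 fold change above 0 (46.8% of all genes), with a median of 0.64. Of the 8, 0 passed in edgeR, 3 had an unadjusted p under 0.05 (19.6% of all genes), and DESeq2 called 3 higher (5.18% of all genes). *Spi1*, which encodes PU.1, stood at 284, 348 and 353 CPM in libraries 2, 3 and 5, against 426, 349.9 and 554 CPM in wild type, a log2 fold change of -0.43 (SE 0.20; adjusted p = 0.297 in edgeR). *Irf8*, which works with PU.1, had 0.88 (SE 0.27), with an adjusted p of 0.150 in edgeR. With the naming split as a term 4 rose, among them *Irf8*, *Cebpa* and *Cebpb*, beside 3.08% of all genes.

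**Figure D4:**
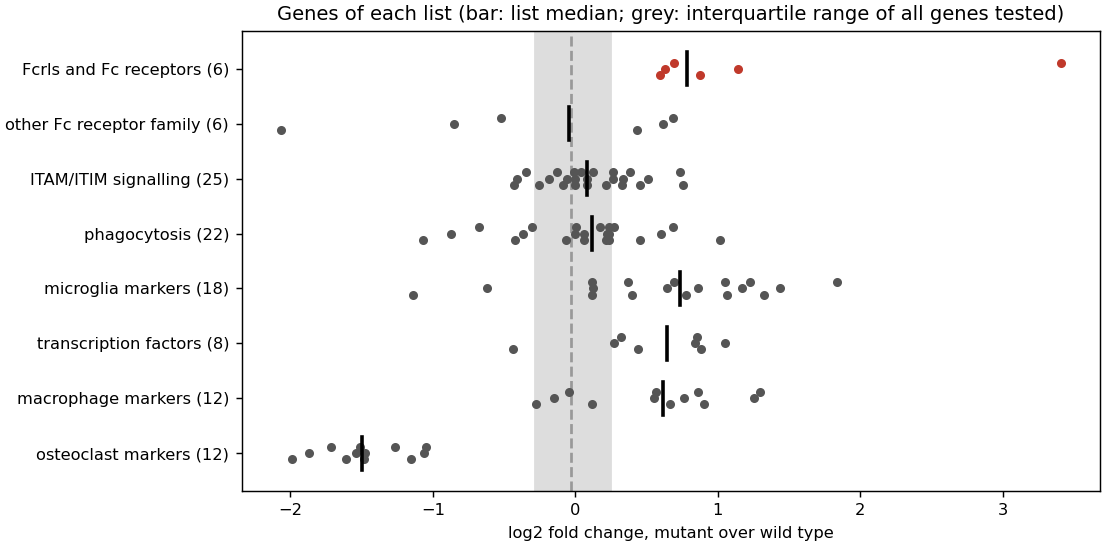
Log2 fold change of the libraries labelled mutant over wild type (horizontal axis) for each gene tested, by list, with the number tested in brackets; bars are list medians, the dashed line and grey band the median and interquartile range of all genes tested. *Fcrls* stands alone at 3.41; the signalling and phagocytosis lists have medians of 0.08 and 0.12, and the osteoclast markers lie on the other side of 0.

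The genes that lie beside the 6 genes on the chromosome had log2 fold changes on both sides of 0 at each location. Within 200 kb of *Fcrls*, 3 other genes were tested: *Cd5l*, which encodes a macrophage scavenger protein, had a log2 fold change of 1.08 (SE 0.43), *Kirrel*, an adhesion gene, 0.70 (SE 0.55), and *Fcrl1* -0.85 (SE 0.33). Around the cluster of *Fcgr2b*, *Fcgr4* and *Fcgr3*, 11 other genes were tested, with a median of -0.52; 1 of them, *Fcer1g*, did not overlap on the higher side and 5 did not on the lower side. Of these, *Sdhc*, a gene of the respiratory chain, had -0.79 (SE 0.24), and *Atf6*, a stress sensor gene of the endoplasmic reticulum, -0.59 (SE 0.14). *Fcer1g* thus lies on the same stretch as *Fcgr3* and *Fcgr4*, 2 of the receptor genes whose products the gamma chain serves, while *Fcgr1* lies on chromosome 3. Around *Fcgr1*, 10 other genes were tested, with a median of -0.65 and 6 not overlapping on the lower side, among them the histone gene *Hist2h2be* with -1.28 (SE 0.27) and the deubiquitinase gene *Otud7b* with -0.71 (SE 0.19), while *Sf3b4*, a splicing factor gene, had 0.21 (SE 0.16) and *Bola1* 0.30 (SE 0.38). Around *Fcgrt*, 21 other genes were tested, with a median of -0.01, and 3 did not overlap on the higher side and 3 on the lower side. *Cd37*, *Scaf1* and *Ap2a1* lay between -0.31 and -0.01. Over all genes tested 9.91% did not overlap on the higher side and 16.9% on the lower side. None of these 45 neighbours passed between the genotypes in edgeR. Of the 45, 12 had an unadjusted p under 0.05 (19.6% of all genes), and DESeq2 called 1 higher and 7 lower (5.18% and 5.89% of all genes).

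**Figure D5:**
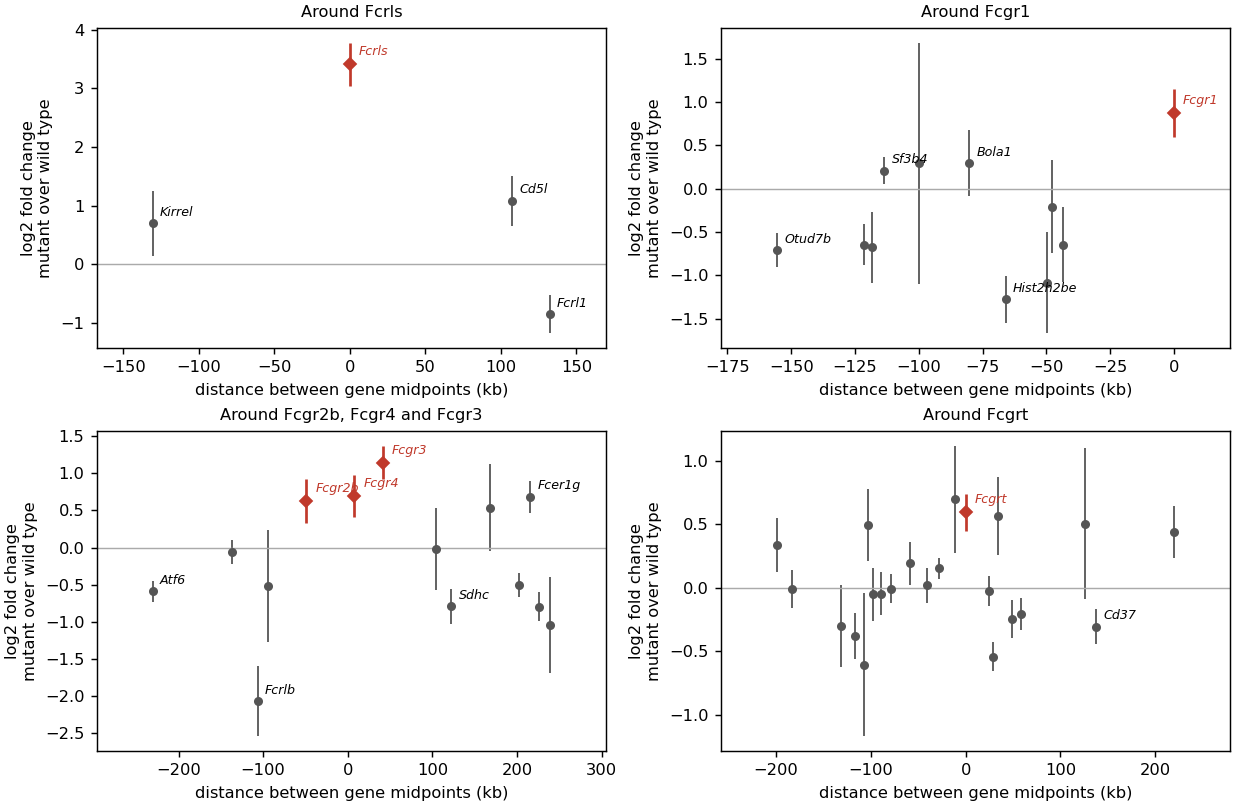
Log2 fold change of the libraries labelled mutant over wild type (vertical axis, bars are SE) against the distance in kb between gene midpoints, for genes tested that reach within 200 kb of each location; red diamonds are the 6 genes, grey points their neighbours. *Fcgr2b*, *Fcgr4* and *Fcgr3* at 0.63, 0.69 and 1.14 lie among neighbours with a median of -0.52.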

How the data were processed

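Stranded mRNA libraries of column-purified RNA were sequenced as single reads of 75 bases, per the labels' protocols. TopHat2 2.0.13, Bowtie2 2.2.3, SAMtools 0.1.19 and the build mm10 are named in the submitters' processing notes; which program did the counting, on which strand and over which annotation is not given in the sources used here. The authors deposited raw counts per Ensembl gene, not normalized, of which 60 repeated rows were dropped. A column's name shows its genotype and no replicate number, so columns were assigned to genotypes only. The labels give both sexes in each genotype, so not all libraries of a genotype came from one animal, but they do not say that each came from its own, and part of the spread that p-values measure may be technical. The closest pair of libraries still differed beyond sampling noise, with a chi-square of 27.5 times its degrees of freedom.

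After filterByExpr (all 6 members passed) and TMM scaling, counts went into the quasi-likelihood test of edgeR 4.0.16 (R 4.3.3), with Benjamini-Hochberg adjustment over 14040 genes and a threshold of 0.05. DESeq2 1.42.0, other scalings, no filter, the naming split as a term and leaving out each library were alternatives. SE is the log2 fold change over the root of F. Levels per kb use exon lengths of GENCODE M21. The common biological coefficient of variation was 40.9%. The members and lists were chosen with earlier results of these data known. Of each list the 3 genes of highest level were named, those past the threshold (0 in edgeR), every tested gene of the receptor family, up to 4 neighbours of highest level per location, and the 3 genes (5 for *Fcrls*) of most like profile; others are said to be named after their values were seen. Protein sequences were not used here. Some genes that this rule picks are not reported here.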

Additional observations from a re-analysis of the deposited data

How the results depend on the processing

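The log2 fold change of each of the 6 genes stayed above 0 under every alternative run: other scalings, no filter, DESeq2, the naming split as a term, libraries 1 to 4 alone, libraries 5 and 6 alone, and each library left out. Leaving out each library, it ranged from 3.12 to 3.66 for *Fcrls*, 0.73 to 1.13 for *Fcgr1*, 0.42 to 0.92 for *Fcgr2b*, 1.01 to 1.34 for *Fcgr3*, 0.54 to 0.94 for *Fcgr4* and 0.52 to 0.70 for *Fcgrt*; the activating to inhibitory log2 ratio ranged from 0.30 to 0.62, and without *Fcgr3* it was 0.0863. Between libraries 5 and 6 alone, *Fcgr1*, *Fcgr2b*, *Fcgr3*, *Fcgr4* and *Fcgrt* had 1.46, 1.55, 1.50, 1.24 and 0.33. The count of genes called between the genotypes, 10, was 88 with library totals, 81 with no filter, 1402 in DESeq2, 1219 with the naming split as a term, 1 within libraries 1 to 4, and 0 to 3 with a library left out. *Tet2* had -0.57 with the split as a term and -0.54 in DESeq2, both past the threshold (adjusted p = 0.0400 and 0.00672); leaving out a library gave -0.63 to -0.49, and 0.21 to 0.30 for *Tet3*. Along the naming split, 322 genes passed, 50 with library totals, 2775 with no filter, 1806 in DESeq2, and 12 to 1305 with a library left out. *Fcrls* passed there with no filter (-0.81) and in DESeq2 (-0.82), and ranged from -1.18 to -0.52 with a library left out. The other 5 genes had no stable direction along the split: *Fcgr1* had 0.0010 with RLE size factors and 0.0038 with no filter, *Fcgr4* -0.0438 with library totals, and with a library left out the ranges were -0.48 to 0.43 for *Fcgr1*, -0.84 to 0.53 for *Fcgr2b*, -0.18 to 0.40 for *Fcgr3*, -0.42 to 0.45 for *Fcgr4* and -0.34 to 0.0107 for *Fcgrt*. The causes were not tested. No paired analysis was possible because the columns carry no replicate number. With 3 libraries per genotype and a wide spread, values that missed the threshold are not shown to be equal. *Fcrlb*, described as not overlapping, had only 8 to 56 counts per library.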
